A study of Rattus norvegicus with 6 samples.

Results

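The transcription factor genes Sox5, Sox6 and Sox9 were examined in primary rat chondrocytes, together with Sox8, Sox4 and Sox11 for contrast. The genes were chosen by name, with earlier results of these data known. Of these 6 genes, 5 had a row among the 18923 genes of the deposited tables, and all 5 passed the filter on low counts that left 13438 genes for testing. Sox4 was not analysed here. The CON group held 3 samples of untreated chondrocytes and the RA group 3 samples that received 1 µM all-trans retinoic acid (RA) for 24 h. Both groups came from wild-type Sprague-Dawley rats aged 24 h, all female, and were grown in high-glucose DMEM with 10% FBS at passage 1 or 2 after collagenase digestion of cartilage. The methods state that the samples of a group were independent, but the labels do not say whether they came from different animals, so p-values measure only the spread between these samples. Samples are named CON 1 to CON 3 and RA 1 to RA 3, and a value with ± is the mean of a group with its SD (n = 3).

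SOX proteins bind DNA through a shared HMG domain and are sorted into subfamilies. SOX9, of the SoxE subfamily, activates the genes of cartilage matrix, and the SoxD proteins SOX5 and SOX6 bind beside it on many of the same enhancers and strengthen its action. Together they are known as the chondrogenic trio. SOX8 and SOX10 are the other SoxE proteins, and SOX4, SOX11 and SOX12 form SoxC, which is best known from progenitor cells. RA, made in the body from vitamin A, switches genes on through nuclear receptors and is known to oppose cartilage formation.

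All of Sox5, Sox6 and Sox9 fell in the RA group, with log2 fold changes between -0.61 and -0.49. Sox8 fell by 0.88, with a 95% interval that overlapped theirs, and passed in 2 of 6 fits with 1 sample left out. Sox11 did not pass the test. A gene was called where the quasi-likelihood test of edgeR gave a Benjamini-Hochberg adjusted p below 0.05. Of the 5 genes, 4 were called lower in RA and 0 higher, while 4.5% of all tested genes were called lower, 5.31% higher and 9.82% in either direction. With the study's fold threshold added, a log2 fold change beyond 0.58, 2 of 5 were lower, Sox6 and Sox8, beside 2.29% of all tested genes lower, 2.67% higher and 4.96% in either direction. In 4 of the 5 every RA sample lay below every CON sample, which held for 15.1% of all tested genes, while 16.8% were separated upwards and 31.9% in either direction. The median log2 fold change was -0.51 over the 5 genes and -0.0057 over all tested genes.

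Promoter windows, 250 bases before and 50 bases after the annotated start as RefSeq annotates the rat genome build GRCr8, were at hand for Sox6 and Sox11, and not for Sox5, Sox8, Sox9 or Sox4. They are shown for a gene that fell and for one that did not pass the test, with Hapln1, a cartilage link protein gene and target of the trio that fell by 1.30 on the log2 scale and holds a retinoid receptor half-site. Sox6 lies on the minus strand (chr1:179665322-179665621), Sox11 on the minus strand (chr6:49738745-49739044) and Hapln1 on the plus strand (chr2:22366717-22367016). Capitals mark matches on either strand to the SOX motif AACAAT, to a second form with the letters AACAAAG, or to a half-site. Other forms of the SOX motif were not searched. The half-site was AGGTCA or a variant of it, with the letters GGGTCA or the letters AGTTCA or the letters GGTTCA.
Sox6: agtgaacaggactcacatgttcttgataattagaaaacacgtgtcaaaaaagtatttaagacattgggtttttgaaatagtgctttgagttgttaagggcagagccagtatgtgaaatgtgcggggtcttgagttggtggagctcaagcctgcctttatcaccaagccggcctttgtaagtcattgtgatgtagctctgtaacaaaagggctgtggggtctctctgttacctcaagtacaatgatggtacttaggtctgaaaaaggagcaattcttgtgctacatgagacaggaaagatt
Sox11: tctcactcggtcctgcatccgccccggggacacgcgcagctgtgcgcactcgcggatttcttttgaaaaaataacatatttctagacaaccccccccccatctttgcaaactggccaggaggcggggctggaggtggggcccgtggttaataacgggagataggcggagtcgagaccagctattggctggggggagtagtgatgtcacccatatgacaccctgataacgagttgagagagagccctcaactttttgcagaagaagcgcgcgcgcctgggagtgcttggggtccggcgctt
Hapln1: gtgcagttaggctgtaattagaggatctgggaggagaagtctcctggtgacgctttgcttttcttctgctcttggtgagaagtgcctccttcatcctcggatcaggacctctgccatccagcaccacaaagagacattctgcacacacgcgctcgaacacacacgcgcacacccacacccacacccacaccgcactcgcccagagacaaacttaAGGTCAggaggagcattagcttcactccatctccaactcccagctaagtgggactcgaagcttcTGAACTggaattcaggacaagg
Neither Sox window held a match to any of these letters, and Hapln1 held 2 half-sites. Of the 33469 windows of all genes, 44.4% held a half-site and 16.7% a SOX motif. These matches are descriptions of the letters and not binding sites.

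Total counts ran from 30170909 to 38007486 in CON and from 29370025 to 30952882 in RA. Where no read was counted, up to 3 counts remain possible, which is 0.0789 to 0.102 CPM (the count scaled to a fixed sample total) and covers counting error only. With all samples, 5.31% of all tested genes were called higher. The treatment was visible in 6 of 8 genes known to respond to retinoids, which rose, and the number was 4 to 6 with 1 sample left out. Among them Cyp26a1 and Cyp26b1, which encode RA-degrading enzymes, had log2 fold changes of 3.35 (standard error 0.276) and 2.65 (standard error 0.115). Rarb, a RA receptor gene, had 1.43 and lost its call when any sample but CON 1 was left out (1.12 to 1.54). Tgm2, the gene of a transglutaminase, had 0.91 and lost its call without RA 3 (0.84). Chondrocyte identity was checked on 9 markers, all of which were present and fell in RA, beside 4.5% of all tested genes called lower. Their summed levels were 6859 to 8956 FPKM in CON and 4301.2 to 4637 in RA. FPKM relate a count to gene length and to the summed counts of its sample. In bulk RNA, fewer cells of a type and less RNA per cell cannot be told apart. The fibroblast and perichondrium markers, 6 of 7 of which were in the tables, summed to 3713 to 4907 FPKM in CON and 4805 to 5061 in RA. Among them Pdgfra passed, with a log2 fold change of 0.44, while Col1a1, at 2976 ± 511 FPKM in CON and 3478 ± 111 in RA, did not. The other 4 did not pass either, with log2 fold changes of 0.13 for Thy1, -0.00068 for Col3a1, -0.16 for Prg4 and -0.73 for Dpt. Summed macrophage markers, 6 of 6 listed, ran from 13.2 to 14.7 FPKM in CON and from 16.1 to 17.4 in RA, and skeletal muscle markers, 4 of 5 listed, from 4.69 to 6.00 and from 6.96 to 7.74, with Myod1 as the only gene of both lists that passed. Cd14 made up nearly all of the macrophage sum, at 12.9 ± 0.834 FPKM in CON and 15.3 ± 0.663 in RA, while Ptprc, Adgre1 and C1qa had 0 to 5 counts in every sample. Des made up nearly all of the muscle sum, at 5.09 ± 0.616 and 6.72 ± 0.387 FPKM. Endothelial markers, 3 of 5 listed, ran from 5.29 to 7.97 FPKM in CON and from 6.06 to 6.75 in RA, nearly all of it Egfl7, and osteoblast markers, 5 of 5 listed, from 8.20 to 9.47 and from 8.19 to 8.45, with Ibsp higher and Alpl lower. The part of other cells in the results below was not tested.

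Sox9 (ENSRNOG00000002607) was the most abundant Sox gene per length. Its level was 30.6, 33.5 and 36.1 FPKM in CON samples 1, 2 and 3 and 23.4, 25.0 and 23.5 in RA samples 1, 2 and 3. Every RA sample lay below every CON sample. The mean was 33.4 ± 2.77 FPKM in CON and 24.0 ± 0.895 in RA. The log2 fold change was -0.49 (standard error 0.0792, 95% interval -0.67 to -0.31), a change of -28.8% with a Benjamini-Hochberg adjusted p = 0.00608 from edgeR. This lay inside the fold threshold of 0.58. Counts ran from 3211 to 4693 in CON and from 2377 to 2513 in RA, the deepest of all Sox genes.

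Sox6 (ENSRNOG00000020514), the SoxD gene with the higher level in CON, was at 7.16, 6.99 and 6.72 FPKM in CON and 4.11, 4.72 and 4.99 in RA. The groups did not overlap, and the RA samples were spread more widely than the CON samples, at 4.61 ± 0.448 against 6.96 ± 0.222 FPKM. Its log2 fold change was -0.61 (standard error 0.0956, 95% interval -0.83 to -0.39, adjusted p = 0.00541, edgeR), a change of -34.3%. The lowest RA sample, sample 1, took it past the fold threshold: without that sample the log2 fold change was -0.52, still with an adjusted p below 0.05.

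Sox5 (ENSRNOG00000027869), the other SoxD partner of Sox9, had 6.38, 6.40 and 6.24 FPKM in CON and 4.81, 4.48 and 4.21 in RA. The CON samples lay within a narrow band, 6.34 ± 0.0863 FPKM, and all RA samples fell below it, at 4.50 ± 0.299. The log2 fold change was -0.51 (standard error 0.0806, 95% interval -0.69 to -0.32, adjusted p = 0.00567, edgeR), a change of -29.6%. Counts ran from 669 to 822 in CON and from 452 to 495 in RA.

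**Figure D1:**
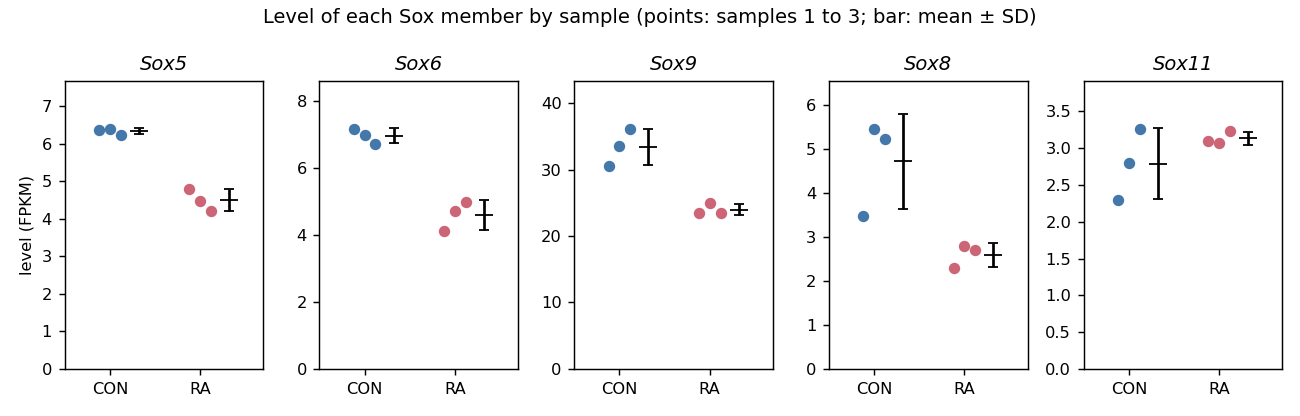
Level in FPKM (vertical axis, from 0, a scale of its own for each gene) of Sox5, Sox6, Sox9, Sox8 and Sox11 in the CON and RA samples; points are samples 1 to 3 from left to right and the bar beside them is the mean with its SD. For Sox5, Sox6, Sox9 and Sox8 all RA points lie below all CON points, while for Sox11 the groups overlap.

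Sox8 (ENSRNOG00000018841), the SoxE paralog of Sox9, had the largest fold change of the tested Sox genes and the largest standard error among those that passed. It was at 3.48, 5.46 and 5.23 FPKM in CON and 2.28, 2.79 and 2.71 in RA. CON 1 stood lower than the other two and nearest to the RA samples, but the groups did not overlap. The mean was 4.72 ± 1.08 FPKM in CON and 2.60 ± 0.272 in RA. On the log2 scale the change was -0.88 (standard error 0.181, 95% interval -1.29 to -0.46, adjusted p = 0.0183, edgeR). The call was lost in 4 of 6 fits with a sample removed. Leaving out CON 2 gave -0.77, RA 1 gave -0.79, RA 2 gave -0.94 and RA 3 gave -0.91. In these 4 fits the genes passing over the whole table numbered 657 to 721, against 1319 with all samples. Over all alternatives the adjusted p of Sox8 ran from 4.87e-05 to 0.0881 (edgeR, DESeq2 or limma). Sox8 and Sox10 are also known from Schwann cells and neural crest. Sox10 was at 0 counts in 5 samples and 2 in CON 3. The summed level of the 6 listed Schwann markers present ran from 277 to 327 FPKM in CON and from 176 to 187 in RA. S100b, which chondrocytes also express, made up nearly all of it, at 294 ± 27.1 FPKM in CON and 180.0 ± 5.34 in RA, and fell by 0.72 on the log2 scale. The part of such cells in the fall of Sox8 was not tested.

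Sox11 (ENSRNOG00000030034), a SoxC gene, had 2.30, 2.80 and 3.26 FPKM in CON and 3.10, 3.07 and 3.23 in RA. The RA samples lay inside the range of the CON samples. The change was 0.15 on the log2 scale (standard error 0.156, 95% interval -0.21 to 0.51, adjusted p = 0.599, edgeR), so the interval held both falls and rises. Sox12, the other SoxC gene in the tables, had 9.80, 11.6 and 16.0 FPKM in CON and 13.8, 16.96 and 16.7 in RA. It changed by 0.32 on the log2 scale (95% interval -0.10 to 0.75, adjusted p = 0.332, edgeR). The groups overlapped for both genes, and CON 3 held the highest CON value of each.

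Of the 16 Sox genes in the tables, 8 were tested, 4 fell and 0 rose, beside 4.5% of all tested genes called lower and 5.31% higher. Sox13, the remaining SoxD gene, was at 0.837 ± 0.188 FPKM in CON and 0.705 ± 0.0863 in RA, which gave -0.26 on the log2 scale (95% interval -0.73 to 0.21). Sox7, a SoxF gene known from endothelium, was at 0.337 ± 0.137 and 0.265 ± 0.0759 FPKM. The 8 Sox genes that were not tested, Sox2, Sox10, Sox14, Sox15, Sox17, Sox18, Sox21 and Sox30, had at most 6 counts in any sample apart from Sox18, which had 19 in CON 3.

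**Figure D2:**
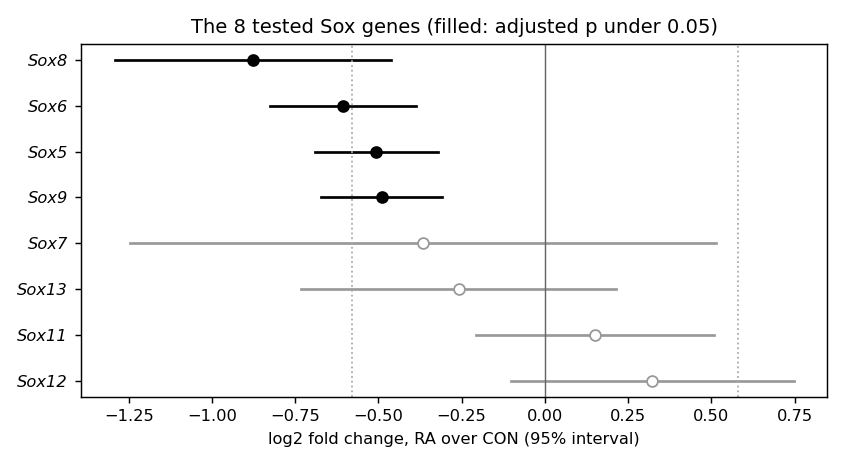
Log2 fold change of RA over CON (horizontal axis) with its 95% interval for the 8 tested Sox genes; filled points had an adjusted p below 0.05 and dotted lines mark the fold threshold of 0.58. The intervals of Sox8, Sox6, Sox5 and Sox9 lie below 0 and overlap each other, and those of Sox7, Sox13, Sox11 and Sox12 include 0.

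Per length, the order of levels in CON was Sox9, Sox12, Sox6, Sox5, Sox8, Sox11, Sox13 and Sox7. The ranges of the CON samples did not overlap for any neighbours in this order, although Sox6 and Sox5 lay within 1 FPKM of each other. The length behind the FPKM of Sox12 was 1020 bases, against 3420 for Sox9, 3096 for Sox6 and 3465 for Sox5. In RA the ranges of Sox6 and Sox5 overlapped, and the order of Sox8 and Sox11 was the other way round. The ratio of Sox8 to Sox11 was 1.51, 1.95 and 1.61 in CON and 0.737, 0.911 and 0.839 in RA, a comparison chosen after the values were seen and not tested.

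Whether the members differed from each other in their response was examined through ratios of FPKM within each sample, on the log2 scale. The ratio of Sox5 to Sox9 was -2.26, -2.39 and -2.53 in CON and -2.28, -2.48 and -2.48 in RA. The mean changed by -0.022 (exact permutation test, p = 0.9). The ratio of Sox6 to Sox9 changed by -0.13 (exact permutation test, p = 0.5), and that of Sox5 to Sox6 by 0.10 (exact permutation test, p = 0.7). For all these ratios within the trio the groups overlapped. The change in the Sox6 to Sox9 ratio moved with single samples, to -0.042 when CON 1 was left out, -0.063 for RA 1, -0.21 for CON 3 and -0.20 for RA 3. The Sox8 to Sox9 ratio changed by -0.37 (exact permutation test, p = 0.2), with CON 1 inside the RA range. The Sox11 to Sox9 ratio was -3.73, -3.58 and -3.47 in CON and -2.92, -3.03 and -2.87 in RA, and the groups did not overlap. Among all tested genes 66.2% were separated upwards in the same way when divided by Sox9. The change was 0.66 (2-sided exact permutation test, p = 0.1, adjusted p = 0.5 over 5 ratios). Over the 5 ratios the adjusted p values ran from 0.5 to 0.9. A p of 0.1 is the smallest that 3 samples against 3 can give, so no ratio could pass the test.

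**Figure D3:**
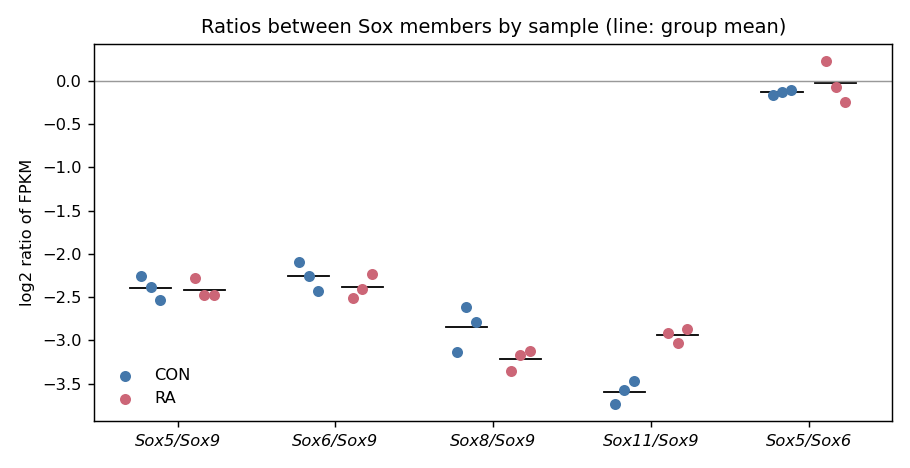
Log2 ratio of FPKM (vertical axis) between pairs of Sox members in each CON and RA sample, with a line at the group mean. The groups overlap for Sox5/Sox9, Sox6/Sox9, Sox8/Sox9 and Sox5/Sox6, and all RA points of Sox11/Sox9 lie above all CON points.

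Levels per length were also added up within subfamilies, since paralogs can stand in for each other. The SoxE sum was 34.1, 38.9 and 41.4 FPKM in CON and 25.7, 27.8 and 26.2 in RA. Sox9 made up 87.7 ± 1.92% of it in CON and 90.2 ± 0.759% in RA. The SoxD sum of Sox5, Sox6 and Sox13 was 14.2, 14.4 and 13.8 FPKM in CON and 9.56, 9.87 and 10.0 in RA, with Sox5 and Sox6 at 44.9 ± 0.461% and 49.2 ± 1.06% of it in CON and at 45.9 ± 4.12% and 46.9 ± 3.52% in RA. The RA to CON ratio of the means was 0.697 for SoxE and 0.694 for SoxD. Both sums were lower in every RA sample than in every CON sample (exact permutation test, p = 0.1 each, adjusted p = 0.15 over 3 sums). The sum of Sox11 and Sox12 went from 15.3 ± 3.66 to 18.9 ± 1.80 FPKM (exact permutation test, p = 0.2, adjusted p = 0.2), with overlapping groups and without Sox4. The difference of 3.68 FPKM became 2.09 when CON 1 was left out and 5.68 when CON 3 was.

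The genes whose profile over the 6 samples lay closest to each trio gene were found by the root mean square distance between centred log2 CPM values. For Sox9 they were Gpc6 (0.0356), Ppp4r4 (0.0439) and Cgref1 (0.0472). For Sox5 they were Atp10a (0.0413), Zfpm2 (0.042) and Nrp1 (0.0433), and for Sox6 Adk (0.0291), Asrgl1 (0.0457) and Xaf1 (0.0584). Of these genes, Ppp4r4 and Xaf1 did not pass (adjusted p = 0.238 and 0.145, edgeR). Distances within the trio were 0.103 between Sox5 and Sox9, 0.138 between Sox6 and Sox9 and 0.147 between Sox5 and Sox6. The nearest genes were picked as the smallest distances over all tested genes, so their lying below those within the trio says little. With 13438 genes tested, Sox9 was the 137th nearest gene to Sox5 and the 146th nearest to Sox6. Sox6 was the 525th nearest to Sox5. Sox11 lay at 0.339 from Sox9 and Sox8 at 0.247.

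Genes that SOX9, SOX5 and SOX6 are known to activate in chondrocytes were examined as a list of 20. All 20 were tested, 19 fell, 0 rose and 1, Matn4, did not pass. Of all tested genes, 4.5% were called lower and 5.31% higher. The median log2 fold change was -0.97 over the list and -0.0057 over all tested genes. The list holds all of the chondrocyte markers above, so their fall is part of this result, and its direction was known when it was drawn up. Ucma, a secreted Gla-rich cartilage protein gene, fell furthest, by 1.77 on the log2 scale, with 515 ± 23.1 FPKM in CON and 152 ± 6.06 in RA. Epyc, the gene of the proteoglycan epiphycan, fell by 1.75 and Matn3, the gene of a matrilin, by 1.65. Acan, which encodes aggrecan, fell by 1.51 (standard error 0.0895, adjusted p = 4.78e-05, edgeR), and Col27a1, a fibrillar collagen gene, by 1.43. Col2a1, the gene of type II collagen and the best known target of SOX9, fell by 0.78 (standard error 0.119, adjusted p = 0.00457, edgeR).

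Among the 19 targets that passed, the smallest falls were those of Col9a3 and Col11a1, collagen genes, with -0.52 and -0.60. Matn4, which did not pass, was also at -0.52. With 1 sample left out, between 16 and 20 of the 20 targets passed, and 16 passed in each of the 6 fits. Col9a3 passed in the fit without CON 1 and in none of the others, where leaving out CON 2 gave -0.42, CON 3 -0.45, RA 1 -0.49, RA 2 -0.53 and RA 3 -0.55. The call of Col11a2 was lost when CON 2 (-0.64), RA 1 (-0.64) or RA 2 (-0.71) was left out, and that of Comp when RA 1 was (-0.57).

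With all samples, each of the 20 targets had a more negative log2 fold change than Sox9, and 17 had a more negative one than all of Sox5, Sox6 and Sox9. The order was not firm for Col9a3 and Matn4, which lay close to Sox9: without CON 2, Col9a3 was at -0.42 and Sox9 at -0.49. Among the 17, Comp and Col11a2 were not firmly ahead of Sox6. With 1 sample left out their smallest falls were -0.56 and -0.59, while Sox6 ran from -0.67 to -0.52. Dividing each target by the FPKM of Sox9 in the same sample, a scale chosen after the values were seen, left 15 of 20 targets lower in every RA sample than in every CON sample, beside 1.7% of all tested genes. Acan per unit of Sox9 was 21.0, 21.7 and 21.7 in CON and 9.94, 10.5 and 11.4 in RA. Ucma per unit of Sox9 was 17.5, 15.5 and 13.6 in CON and 6.25, 6.05 and 6.73 in RA. Both were separated by more than the spread within a group. Col2a1 per unit of Sox9 was 142, 173 and 170.0 in CON and 129, 131 and 138 in RA, a smaller shift without overlap. For Col9a3, Col11a1, Col11a2, Matn4 and Comp the groups overlapped on this scale. These ratios share the Sox9 values of each sample and were not tested.

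**Figure D4:**
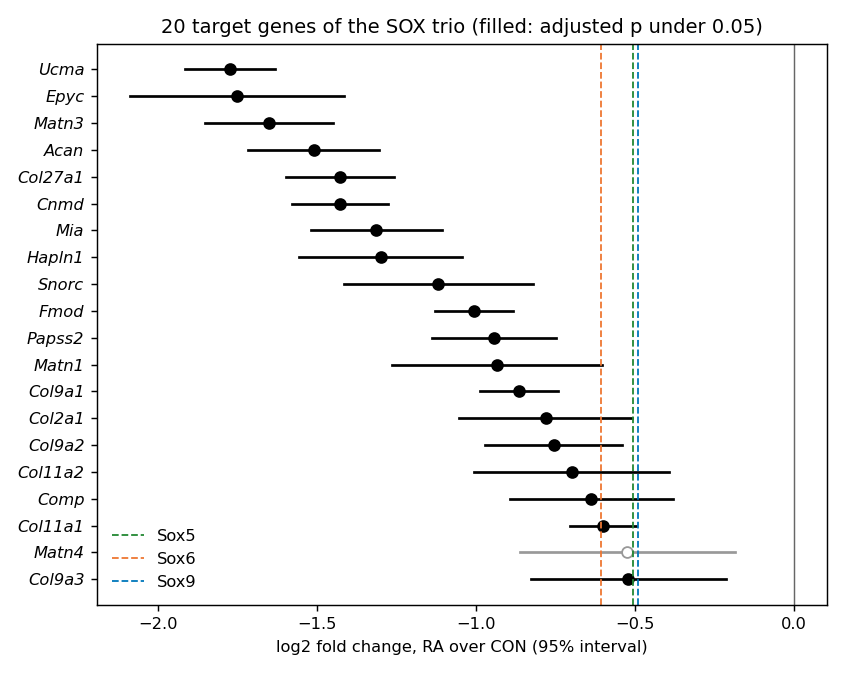
Log2 fold change of RA over CON (horizontal axis) with its 95% interval for 20 genes known to be activated by the SOX trio; filled points had an adjusted p below 0.05, and dashed lines stand at the log2 fold changes of Sox5, Sox6 and Sox9. Every target lies to the left of the Sox9 line at -0.49, from Ucma at -1.77 to Col9a3 at -0.52.

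The promoter windows of 14 of the 20 targets were at hand. Of these, 0 held a SOX motif in the forms searched and 3, Hapln1, Comp and Fmod, held a retinoid half-site. Enhancers outside these windows were not searched.

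Of 14 listed genes whose products work with SOX9, 13 were tested, 2 fell and 0 rose, with a median log2 fold change of 0.031. With all samples, 2 of 13 is close to the 9.82% of all tested genes that were called in either direction. With 1 sample left out the number was 1 to 2. Wwp2, which encodes a ubiquitin ligase that binds SOX9, was at 85.8, 87.2 and 85.9 FPKM in CON and 38.6, 44.8 and 41.4 in RA. It was lower in every RA sample and fell by 1.07 on the log2 scale (standard error 0.0698, adjusted p = 7.07e-05, edgeR). Prkg2, the gene of a cGMP-dependent kinase that acts on SOX9 in growth plate cartilage, was at 0.833 ± 0.107 FPKM in CON and 0.395 ± 0.153 in RA, which gave -1.09 on the log2 scale. Its call was lost when CON 2 (-1.03), CON 3 (-1.18), RA 2 (-1.12) or RA 3 (-0.82) was left out. The coactivator genes Ep300, Crebbp, Med12 and Med25 had log2 fold changes of 0.16, 0.0015, 0.022 and 0.19 and did not pass.

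Of 16 listed genes that act upstream of Sox9 or against it, 15 were tested, 1 rose and 1 fell, with a median log2 fold change of 0.081. With so few genes this is close to the 9.82% of all tested genes that were called in either direction. Twist1, a transcription factor gene known to restrain chondrocyte differentiation, was at 19.2, 20.2 and 19.0 FPKM in CON and 25.9, 26.8 and 26.5 in RA. The groups were far apart for the spread within them, and it rose by 0.43 on the log2 scale (standard error 0.0624, adjusted p = 0.00369, edgeR). Fgfr3, a growth factor receptor gene of growth plate chondrocytes, was at 73.4, 102 and 101 FPKM in CON and 56.4, 60.7 and 60.0 in RA. It fell by 0.66 on the log2 scale (adjusted p = 0.0121, edgeR, and up to 0.0665 in the fits with 1 sample left out). The call was lost when CON 2 (-0.59), RA 1 (-0.62), RA 2 (-0.68) or RA 3 (-0.67) was left out. The genes of β-catenin, Snail and Slug, Ctnnb1, Snai1 and Snai2, had 0.13, 0.0067 and 0.022 and did not pass, and neither did Runx2 with 0.22.

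The fits that each left out 1 sample gave log2 fold changes of -0.55 to -0.46 for Sox5, -0.67 to -0.52 for Sox6 and -0.55 to -0.42 for Sox9, and each of these genes passed in 6 of 6. Sox8 ran from -1.06 to -0.77 and passed in 2 of 6, and Sox11 ran from 0.028 to 0.29 and passed in 0 of 6.

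**Figure D5:**
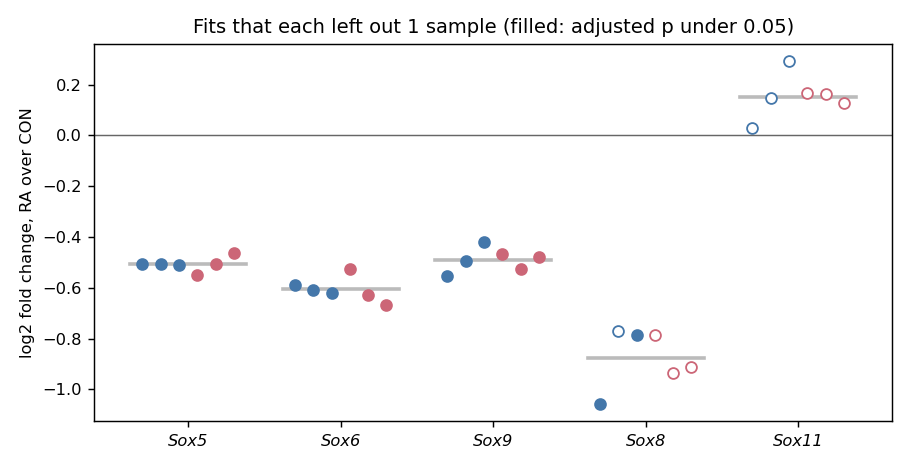
Log2 fold change of RA over CON (vertical axis) of 5 Sox genes in fits that each left out 1 CON sample (blue) or 1 RA sample (red), in the order 1 to 3; filled points had an adjusted p below 0.05 and the grey bar is the fit with all 6 samples. Sox5, Sox6 and Sox9 are filled throughout, Sox8 is filled in 2 of 6 fits, and Sox11 in 0.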

How the data were processed

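Poly(A) RNA of 3 CON and 3 RA samples was sequenced on an Illumina HiSeq after NEBNext Ultra library preparation. Samples were grouped and numbered by their titles. The authors deposited a whole-number read count per gene and an FPKM value. The deposited FPKM equal the count over gene length and over the summed counts of its sample, so they hold no further normalization. The submitters' processing notes name HISAT2, HTSeq 0.13.5 and the build Rnor_6.0. The setting for strand and for reads shared by similar genes is not given in the sources used here. Coordinates are printed for the RefSeq promoter windows alone, on GRCr8, since the reference tables use another build than the counts.

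edgeR 4.0.16 in R 4.3.3 was fitted to all 13438 genes kept by filterByExpr (minimum count 10) with TMM normalization, no covariates, glmQLFit and glmQLFTest, and p was adjusted by Benjamini-Hochberg over all of them. Standard errors were derived from the F statistic. Ratios and sums of FPKM were compared by 2-sided exact permutation tests. The Sox4 to Sox9 ratio of the plan was not computed. Log2 CPM used a prior count of 2. Where a symbol had several identifiers, the most highly counted was taken. The genes named in the text are the Sox genes, the up to 5 genes of each list that passed with the largest change, Col2a1, Acan, and the 3 genes closest to each trio member; other genes, such as Matn4, Col9a3, Runx2 and the coactivators, were chosen after their values were seen. Results for some genes of the lists are not reported here. The members and lists were chosen with earlier results of these data known. The edgeR and DESeq2 fits were tested on simulated data with known changes, where both gave a share of false calls above the nominal level of 5%. Alternatives were DESeq2 1.42.0, limma 3.58.1 on log2(FPKM + 0.1) and log2(FPKM + 1), RLE factors, library totals alone, no filter, each sample left out and the replicate number as a block.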

Additional observations from a re-analysis of the deposited data

How the results depend on the processing

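Sox5, Sox6 and Sox9 kept their direction and stayed below an adjusted p of 0.05 in 13 of 13 alternatives each, between -0.55 and -0.42, -0.67 and -0.51, and -0.55 and -0.42 in log2 fold change. Sox8 passed in 9 of 13, between -1.06 and -0.66 (limma on log2(FPKM + 1)), and between -1.06 and -0.77 with 1 sample left out. With the fold threshold of 0.58 the number of Sox members passing went from 4 to 2. The list of SOX9 partners had 1 gene passing in place of 2 with library totals alone and with limma on log2(FPKM + 0.1). With 1 sample left out, this list and that of upstream and opposing regulators each had 1 to 2 genes passing. The genes passing over the whole table numbered 1319, of which 714 were higher in RA. With 1 sample left out they ran from 657, without RA 3, to 2242, without CON 1, and those higher in RA from 375 to 1179. They also moved by over 1.5 times without CON 2 (721), RA 1 (693) and RA 2 (680). The cause was not tested. The change in the Sox5 to Sox9 ratio ran from -0.091 to 0.045 with 1 sample left out and was above 0 when CON 1 (0.045), RA 2 (0.011) or RA 3 (0.011) was left out. That of Sox5 to Sox6 ran from -0.025, without RA 1, to 0.21. Same-numbered samples deviated from their group means with correlations of 0.0928, -0.0123 and 0.0118 over genes, so the numbers were not taken as pairs. With the replicate block, 1595 genes passed, and log2 fold changes were -0.51 for Sox5, -0.61 for Sox6, -0.49 for Sox9, -0.86 for Sox8 and 0.17 for Sox11, and 4 of the 5 passed. In the lists, the block gave 20 targets, 2 partners, 2 upstream and opposing genes and 5 retinoid genes. With 3 samples a group, ratios and sums could not pass a permutation test at any depth.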
